A study of Mus musculus with 16 samples.

Results

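The 10 genes described here, Ephx1, Dcxr, Cox6b2, Ak1, Abhd4, Rps27l, Phlda3, Epha2, Avil and Ei24, code for enzymes and effector proteins that act beyond the arrest of the cell cycle, and they were chosen by their link to p53 or by a higher signal after irradiation in these same arrays. They are 10 of the 17436 genes that were tested, and each of them passed the filter on dim probes. Because the choice used the irradiation response, the differences between irradiated and sham mice are given below as descriptions without a test. Tests are given only for genotype, for the interaction of genotype with irradiation, and for other genes. A gene was called where its limma p, adjusted by Benjamini-Hochberg over all genes, was under 0.05.

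Cerebral cortex was taken from 4 groups of 4 male mice, and each mouse had an array of its own. The groups were Neil1 knockout mice (Neil1-/-, backcrossed on C57BL/6) given 6 Gy of whole-body gamma radiation at 0.74 Gy/min, Neil1 knockout mice given a sham exposure, wild-type littermates given the same radiation, and wild-type littermates given a sham exposure. Wild-type mice were 28 to 42 weeks old per the protocols, and the age label of every sample gives the same range. The cortex was collected 20 h after exposure, and the protocols describe intraperitoneal BrdU (100 mg/kg), a thymidine analogue, before the exposure and 2 h after it. NEIL1 starts base excision repair by cutting oxidised bases out of DNA, and the knockout affects the whole animal. Whole cortex holds many cell types, so fewer cells of a type and less RNA per cell cannot be told apart in these data.

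Ionising radiation breaks DNA and activates the kinase ATM, which stabilises the transcription factor p53. Besides the arrest gene Cdkn1a, p53 switches on genes for apoptosis, metabolism, the handling of reactive molecules and the control of growth signals. Rps27l, Phlda3, Epha2 and Ei24 are known as p53 target genes. Ephx1, Dcxr, Cox6b2, Avil, Ak1 and Abhd4 have roles in metabolism or the cytoskeleton, and whether p53 acts on them was not tested here. In brain, p53 target genes respond to irradiation within hours.

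The promoter sequences of 4 of the genes are shown because 3 of them are the ones in which a p53 consensus half-site was found, and Dcxr is the gene with the largest difference after irradiation. RefSeq (GRCm38.p6) gave 15 windows for the 10 genes, each of 300 bases from 250 before to 50 after a transcript start. A match to the p53 half-site consensus, searched on both strands, was present in 3 of the 15 windows. The matches are written in capitals. The sequences run 5′ to 3′ in the direction of the gene.
Rps27l, chr9:66946163-66946462, plus strand: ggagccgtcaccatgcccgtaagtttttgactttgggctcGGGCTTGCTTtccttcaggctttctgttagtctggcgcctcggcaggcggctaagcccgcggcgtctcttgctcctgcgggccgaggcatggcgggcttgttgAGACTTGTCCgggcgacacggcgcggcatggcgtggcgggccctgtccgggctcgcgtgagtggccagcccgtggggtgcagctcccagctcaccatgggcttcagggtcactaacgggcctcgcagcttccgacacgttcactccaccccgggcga
Abhd4, chr14:54259033-54259332, plus strand: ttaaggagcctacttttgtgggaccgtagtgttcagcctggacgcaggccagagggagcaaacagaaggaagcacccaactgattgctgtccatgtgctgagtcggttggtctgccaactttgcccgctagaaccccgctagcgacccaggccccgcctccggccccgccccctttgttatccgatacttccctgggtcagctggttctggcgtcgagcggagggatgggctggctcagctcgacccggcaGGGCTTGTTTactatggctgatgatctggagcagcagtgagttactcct
Ei24, chr9:36797285-36797584, minus strand: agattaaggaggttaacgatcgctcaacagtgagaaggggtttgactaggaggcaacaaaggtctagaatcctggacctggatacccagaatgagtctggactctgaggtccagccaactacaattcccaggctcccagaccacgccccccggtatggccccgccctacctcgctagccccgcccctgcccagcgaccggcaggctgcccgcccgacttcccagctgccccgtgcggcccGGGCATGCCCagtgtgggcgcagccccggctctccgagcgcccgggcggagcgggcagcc
Dcxr, chr11:120727235-120727534, minus strand: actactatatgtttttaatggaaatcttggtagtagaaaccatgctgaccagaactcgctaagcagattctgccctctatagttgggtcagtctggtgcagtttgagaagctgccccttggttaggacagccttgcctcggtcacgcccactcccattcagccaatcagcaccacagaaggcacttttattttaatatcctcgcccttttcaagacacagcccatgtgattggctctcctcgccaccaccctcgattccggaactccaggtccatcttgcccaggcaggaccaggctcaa
The half-site also occurred in 2745 of 32851 RefSeq promoter windows of the same length, a share of 8.36%. Rps27l had both of its matches in this window and none in its other window, while Abhd4 and Ei24 had 1 match each, close to the start. No window of the 10 genes held a full p53 site, which is a pair of half-sites with a spacer of 0 to 13 bases. A full site was found in 24 of the 32851 windows (0.0731%). The letters TGACNNNGC, the core of the antioxidant response element, were searched as well on both strands and did not overlap a half-site. They occurred in 3 of the 4 windows of Ak1 and in no window of the other 9 genes, against 12.4% of all windows. These matches describe letters in a window and say nothing about binding.

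Every level below is a log2 signal relative to the 75th percentile of its own array. That percentile was 1333 ± 301 intensity units in irradiated knockout mice, 1778 ± 343 in sham knockout mice, 2301 ± 235 in irradiated wild-type mice and 2415 ± 274 in sham wild-type mice (SD, n = 4 each). Between 62.4% and 72.4% of spots per array were well above background, and 0 spots were saturated. All 8 knockout arrays lay on 1 slide and all 8 wild-type arrays on the other, so genotype and slide cannot be told apart. Within each slide the irradiated and the sham mice filled separate rows, so irradiation and slide row cannot be told apart. The Neil1 probe was brighter in knockout than in wild-type arrays, 2.62-fold after irradiation and 2.42-fold in sham mice (exact permutation test, two-sided p = 0.0286 in each, the smallest that 4 against 4 allows). The labels do not say where the probe lies relative to the deletion, so it does not check the genotypes. Markers of cortical neurons were present on every array, and 11 of 12 were tested. Their summed linear signal was 238 to 285 times the 75th percentile in irradiated knockout mice and 244 to 281 in sham knockout mice. It was 216 to 227 in irradiated wild-type mice and 202 to 221 in sham wild-type mice. Every knockout sum thus lay above every wild-type sum. In each genotype contrast 10 of the 11 markers had a higher mean in knockout mice, with 0 called. Of 5 ependyma and 6 meninges markers, 0 had a higher mean in knockout mice in either contrast. For choroid plexus it was 0 of 10 in sham mice and 4 of 10 after irradiation. For oligodendrocytes it was 0 of 8 in sham mice and 8 of 8 after irradiation. Again 0 of these markers were called. The part of these shifts in the genotype differences given below was not tested.

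After irradiation the mean level of each of the 10 genes was higher than in sham mice, in both genotypes. The median difference over the 10 genes was 0.96 on the log2 scale in knockout mice and 0.77 in wild-type mice, while the median of all genes was -0.00 in knockout mice and 0.01 in wild-type mice. For Ephx1, Dcxr, Cox6b2, Rps27l, Avil and Epha2 the 8 irradiated mice all lay above the 8 sham mice. The share of all genes that separated in this way is not given here. In knockout mice 8 of the 10 genes had irradiated values entirely above the sham values, against 1.16% of all genes. In wild-type mice 6 of the 10 did, against 0.866% of all genes. The choice of the genes used these contrasts, so the counts describe the choice.

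**Figure D1:**
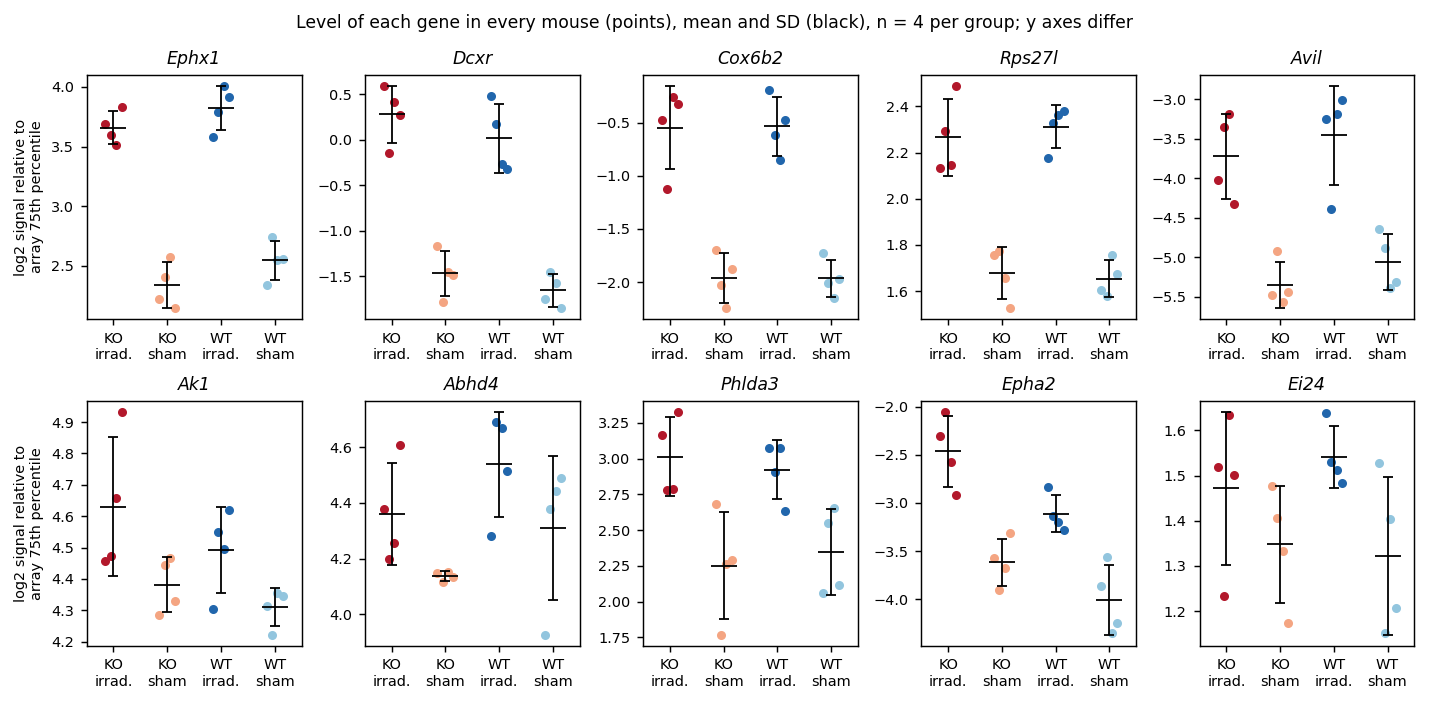
Log2 signal relative to the 75th percentile of the array (y axis, a separate range for each gene) in every mouse (points) of the 4 groups, with the mean and SD in black (n = 4). In Ephx1, Dcxr, Cox6b2, Rps27l, Avil and Epha2 all 8 irradiated mice lie above all 8 sham mice, while the groups overlap in both genotypes in Ak1 and Ei24.

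Ephx1 codes for microsomal epoxide hydrolase, which turns reactive epoxides into diols. Its levels were 3.69, 3.60, 3.51 and 3.84 in irradiated knockout mice, against 2.22, 2.40, 2.58 and 2.15 in sham knockout mice. In irradiated wild-type mice they were 3.58, 3.79, 4.01 and 3.92, against 2.34, 2.74, 2.55 and 2.55 in sham wild-type mice. The irradiated and sham ranges were far apart in both genotypes, and the spread within a group was small beside the gap. The difference after irradiation was 1.32 (SE 0.13, 2.50-fold) in knockout mice and 1.28 (SE 0.13, 2.43-fold) in wild-type mice. Among the 17436 genes, Ephx1 ranked 11th from the highest in the averaged difference. Of 18 tested genes of epoxide hydrolysis and conjugation besides Ephx1, 1 was called, and their median averaged difference was 0.02. The exception was Sult1a1, a sulfotransferase that conjugates phenols, which was higher by 0.69 (SE 0.10, 1.61-fold, limma adjusted p = 0.00462) and by 0.67 with its other probe. The soluble epoxide hydrolase gene Ephx2 differed by -0.04 (SE 0.10), and Nqo1, a quinone reductase, by 0.27 (SE 0.16), neither of them called.

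Dcxr codes for dicarbonyl and L-xylulose reductase, which uses NADPH to reduce reactive dicarbonyls and takes part in the glucuronate pathway. Irradiated knockout mice had levels of 0.59, -0.15, 0.41 and 0.27, against -1.16, -1.78, -1.45 and -1.49 in sham knockout mice. Irradiated wild-type mice had 0.48, 0.17, -0.26 and -0.33, against -1.75, -1.45, -1.57 and -1.85 in sham wild-type mice. The lowest irradiated mouse of either genotype was still above the highest sham mouse. Dcxr had the largest difference of the 10 genes, 1.75 (SE 0.20, 3.36-fold) in knockout mice and 1.67 (SE 0.20, 3.18-fold) in wild-type mice, and ranked 4th of all genes in the average. None of 11 tested genes of carbonyl reduction and the glucuronate pathway was called in the averaged contrast, and their median difference was -0.03. Cbr4, a mitochondrial carbonyl reductase, had the highest of these differences at 0.13 (SE 0.08). Cbr2, the lung carbonyl reductase of the same enzyme family as Dcxr, had 0.01 (SE 0.19) with its brighter probe. Its other probe gave -0.26 in the average, with 0.45 in knockout mice and -0.96 in wild-type mice.

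Cox6b2 is the isoform of subunit 6B of cytochrome c oxidase that is best known from testis. Its levels were -0.48, -1.12, -0.26 and -0.33 in irradiated knockout mice, against -1.70, -2.03, -2.25 and -1.88 in sham knockout mice. They were -0.20, -0.61, -0.86 and -0.48 in irradiated wild-type mice, against -1.73, -2.01, -2.15 and -1.97 in sham wild-type mice. All irradiated mice were above all sham mice, and replicate 2 of the irradiated knockout mice came nearest to the sham range. The difference was 1.41 (SE 0.19, 2.67-fold) in knockout mice and 1.43 (SE 0.19, 2.69-fold) in wild-type mice. The ubiquitous isoform Cox6b1 had an averaged difference of 0.12 (SE 0.08) and was not called. None of 16 tested subunits of the complex besides Cox6b2 was called in the averaged irradiation contrast, with a median of 0.07. Cox6c was the highest of them at 0.22 (SE 0.07, limma adjusted p = 0.612).

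Ak1 codes for the cytosolic adenylate kinase, which exchanges phosphate between adenine nucleotides. Its levels were 4.46, 4.47, 4.66 and 4.93 in irradiated knockout mice, against 4.28, 4.44, 4.47 and 4.33 in sham knockout mice. In wild-type mice they were 4.30, 4.55, 4.50 and 4.62 after irradiation, against 4.32, 4.22, 4.36 and 4.35 after sham. The ranges overlapped in both genotypes, and 6 of the 8 irradiated mice lay above all 8 sham mice. The differences were 0.25 (SE 0.11, 1.19-fold) in knockout mice and 0.18 (SE 0.11, 1.13-fold) in wild-type mice, small beside those of Ephx1, Dcxr and Cox6b2. Of 7 other adenylate kinase genes tested, 0 were called in the averaged limma contrast, and their median difference was -0.01.

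Abhd4 codes for a lipase that acts on N-acyl phospholipids in the making of N-acyl ethanolamines. Irradiated knockout mice had levels of 4.38, 4.20, 4.26 and 4.61, against 4.15, 4.11, 4.15 and 4.13 in sham knockout mice. Irradiated wild-type mice had 4.28, 4.69, 4.67 and 4.52, against 3.93, 4.38, 4.44 and 4.49 in sham wild-type mice. The sham knockout mice were close together and below every irradiated knockout mouse, whereas the wild-type groups overlapped. The difference was 0.22 (SE 0.13, 1.17-fold) in knockout mice and 0.23 (SE 0.13, 1.17-fold) in wild-type mice. None of 13 other genes of this lipid pathway was called in the averaged contrast, and their median was -0.02. Abhd5, a lipase coactivator with the same fold, differed by -0.01 (SE 0.11), and Inpp5d, an inositol phosphatase, had the smallest p of the list with -0.16 (SE 0.07, limma adjusted p = 0.925).

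Rps27l codes for a paralogue of ribosomal protein S27 and is a known p53 target. It had 2 probes, and the brighter gave 2.14, 2.29, 2.15 and 2.49 in irradiated knockout mice, against 1.76, 1.77, 1.66 and 1.53 in sham knockout mice. The same probe gave 2.18, 2.33, 2.36 and 2.38 in irradiated wild-type mice, against 1.61, 1.58, 1.76 and 1.68 in sham wild-type mice. All 8 irradiated mice were above all 8 sham mice with either probe. The brighter probe differed by 0.59 (SE 0.10, 1.5-fold) in knockout mice and 0.66 (SE 0.10, 1.58-fold) in wild-type mice, and the other by 0.74 and 0.72. The paralogue Rps27 differed by 0.05 (SE 0.06) in the average. None of the 7 tested ribosomal protein paralogues besides Rps27l was called, and Rpl39l was the highest at 0.16. Signal from a near-identical copy cannot be separated on such probes where sequences are shared, and this was not tested.

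Phlda3 codes for a small pleckstrin homology protein that competes with the kinase Akt for membrane lipids and so holds Akt back. Its levels were 3.17, 2.78, 2.79 and 3.33 in irradiated knockout mice, against 2.68, 1.77, 2.27 and 2.29 in sham knockout mice. They were 3.07, 2.91, 3.07 and 2.63 in irradiated wild-type mice, against 2.06, 2.55, 2.66 and 2.12 in sham wild-type mice. In knockout mice the groups did not overlap, and in wild-type mice the lowest irradiated mouse fell just within the sham range. The difference was 0.76 (SE 0.20, 1.70-fold) in knockout mice and 0.58 (SE 0.20, 1.49-fold) in wild-type mice. Of 9 tested genes for Akt kinases and their regulators, 0 were called in the averaged contrast, with a median of -0.01. The related Phlda1 differed by -0.07 (SE 0.12), and Phlda2 was on the array but did not pass the filter. Rictor, a subunit of the complex that phosphorylates Akt, gave -0.25 (SE 0.09, limma adjusted p = 0.705) with its brightest probe and 0.27 and 0.29 with its other probes, so its probes disagreed in sign.

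Epha2 codes for a receptor tyrosine kinase that binds ephrin-A ligands on neighbouring cells. Its levels were -2.30, -2.06, -2.58 and -2.92 in irradiated knockout mice, against -3.57, -3.91, -3.68 and -3.31 in sham knockout mice. Irradiated wild-type mice had -2.84, -3.13, -3.19 and -3.28, against -3.86, -3.56, -4.35 and -4.24 in sham wild-type mice. All 8 irradiated mice were above all 8 sham mice, and 3 of the 4 irradiated knockout mice were above every irradiated wild-type mouse. The difference was 1.15 (SE 0.21, 2.22-fold) in knockout mice and 0.89 (SE 0.21, 1.86-fold) in wild-type mice. None of the 21 other Eph receptor and ephrin genes was called in the averaged contrast, and their median was -0.02. Epha4, a receptor of the same class that is abundant in brain, differed by -0.00 (SE 0.17), and Ephb3 by 0.25 (SE 0.13). Epha3 differed by -0.40 (SE 0.40) with its brighter probe and by 0.07 with its other probe, so its probes disagreed in sign.

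Avil codes for advillin, an actin-binding protein of the gelsolin and villin family that is known from sensory neurons. Its brighter probe gave -4.03, -3.35, -3.19 and -4.32 in irradiated knockout mice, against -5.48, -4.92, -5.57 and -5.44 in sham knockout mice. It gave -3.25, -4.39, -3.18 and -3.01 in irradiated wild-type mice, against -4.64, -4.88, -5.39 and -5.32 in sham wild-type mice. All irradiated mice were above all sham mice, and the SE was the largest of the 10 genes. The difference was 1.63 (SE 0.31, 3.1-fold) in knockout mice and 1.60 (SE 0.31, 3.03-fold) in wild-type mice. With normexp background correction it was 1.01 in knockout mice and 1.04 in wild-type mice, more than 1.5 times lower. The other Avil probe was well above background on 6 of 16 arrays and differed by 0.99 in knockout mice and 0.73 in wild-type mice, where its groups overlapped. None of 7 other genes of the family was called. Villin itself (Vil1) differed by -0.13 (SE 0.13), and Capg, which caps actin filaments, was the highest at 0.27 (SE 0.08, limma adjusted p = 0.477).

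Ei24 codes for a membrane protein of the endoplasmic reticulum that is needed for autophagy and was named for its induction by etoposide. Its brighter probe gave 1.52, 1.23, 1.63 and 1.5 in irradiated knockout mice, against 1.48, 1.41, 1.33 and 1.17 in sham knockout mice. It gave 1.64, 1.53, 1.51 and 1.48 in irradiated wild-type mice, against 1.53, 1.15, 1.40 and 1.21 in sham wild-type mice. The groups overlapped in both genotypes, and replicate 2 of the irradiated knockout mice was below 3 of the 4 sham knockout mice. The differences were 0.12 (SE 0.11, 1.09-fold) in knockout mice and 0.22 (SE 0.11, 1.16-fold) in wild-type mice. The other probe differed by 0.05 in knockout mice and 0.02 in wild-type mice, with overlapping groups. Ei24 had the smallest averaged difference of the 10 genes. Of 12 other genes of autophagosome formation, 0 were called in the averaged contrast, with a median of 0.03. Wdr45b, a lipid-binding WIPI protein, had a higher difference than Ei24 at 0.24 (SE 0.11, limma adjusted p = 0.931). Its relative Wipi1 had -0.24 (SE 0.08, limma adjusted p = 0.652) with its brighter probe and -0.05 with its other probe.

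**Figure D2:**
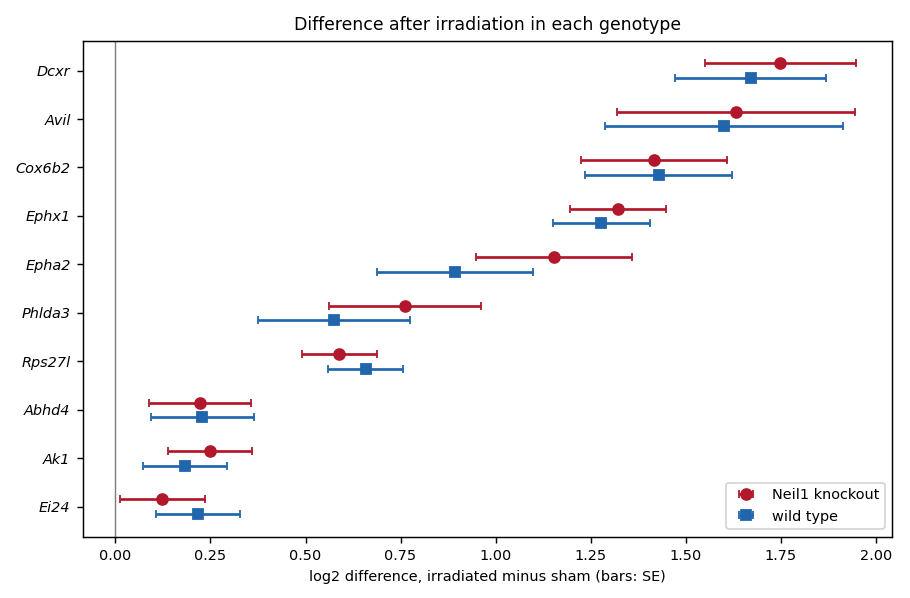
Log2 difference between irradiated and sham mice (x axis) of each gene, in Neil1 knockout mice (red circles, upper) and wild-type mice (blue squares, lower), with bars for the SE of the limma fit. The values run from 0.12 for Ei24 in knockout mice to 1.75 for Dcxr in knockout mice, and the bars of the genotypes overlap for every gene.

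In order of averaged difference, Dcxr, Avil, Cox6b2, Ephx1 and Epha2 lay between 1.02 and 1.71, and Phlda3 and Rps27l at 0.67 and 0.62. Abhd4, Ak1 and Ei24 lay between 0.17 and 0.23. The SE of the averaged difference was 0.15 for Epha2, 0.14 for Phlda3 and 0.07 for Rps27l. The order of the genes was not tested. Among all 17436 genes their ranks from the highest were 4 for Dcxr, 6 for Avil, 7 for Cox6b2, 11 for Ephx1, 25 for Epha2, 89 for Phlda3, 106 for Rps27l, 1128 for Abhd4, 1215 for Ak1 and 1699 for Ei24. Replicate 4 of the irradiated knockout mice, whose array was the dimmest of all, had the highest level of its group in 5 genes (Ephx1, Rps27l, Ak1, Abhd4 and Phlda3). Replicate 2 of that group had the lowest in 5 (Dcxr, Cox6b2, Abhd4, Phlda3 and Ei24). In irradiated wild-type mice, replicate 1 was highest in 5 genes (Dcxr, Cox6b2, Phlda3, Epha2 and Ei24) and lowest in 4 others (Ephx1, Rps27l, Ak1 and Abhd4). No mouse was thus high or low across the whole set.

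Over the 10 pathway lists, each built around 1 of the genes, 121 of 128 listed genes were tested. In the averaged irradiation contrast 1 of them was called higher (Sult1a1) and 0 lower, where 0.304% of all genes were called in either direction. Their median difference was -0.00, with 58 of 121 above 0, and all lay between -0.43 and 0.69. In 9 of the 10 lists no other gene had a difference above that of the gene the list was built on, and the exception was Wdr45b over Ei24. The choice of the 10 genes used this irradiation response, so their place above their lists describes the choice. The lists were compiled with earlier results of these arrays known.

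**Figure D3:**
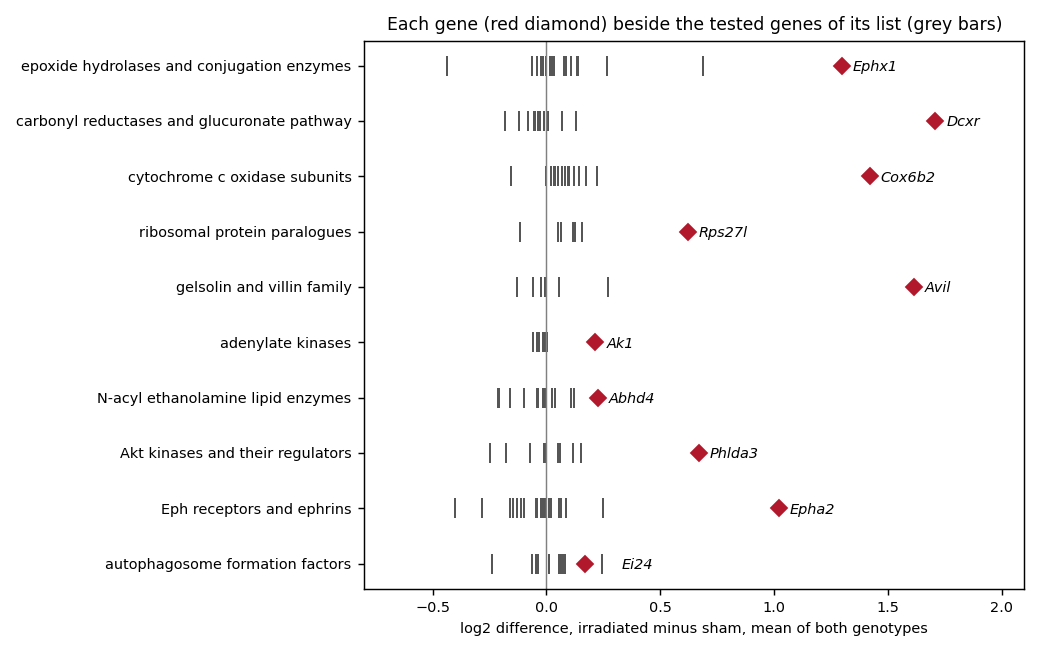
Averaged log2 difference between irradiated and sham mice (x axis) for each of the 10 genes (red diamonds) and for the tested genes of the list built around it (grey bars), 1 list per row. The diamonds lie to the right of their lists in all rows except the last, where Wdr45b lies beyond Ei24. The choice of the 10 genes used the irradiation response, so the position of the diamonds describes the choice.

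A list of 42 other p53 target genes, of which 41 were tested, had 6 genes called higher in irradiated knockout mice, where 0.0746% of all genes were, and 5 in irradiated wild-type mice, where 0.0631% were, with 0 lower in either. In the averaged contrast 7 were called higher, against 0.166% of all genes: Cdkn1a, Tnfrsf10b, Eda2r, Gdf15, Trp53inp1, Aen and Gtse1. The median difference of the list was 0.07 and 32 of its 41 genes had a mean above 0. Trp53inp1, which promotes p53-dependent cell death and autophagy, was higher by 1.03 (SE 0.06), and Gdf15, a secreted stress cytokine, by 1.90 (SE 0.12). Tnfrsf10b, a death receptor, was higher by 1.13 (SE 0.09). The probe of Eda2r, a receptor for ectodysplasin, did not stand well above background in the sham mice, so its level was at least 4.58-fold higher in irradiated knockout mice and at least 6.72-fold higher in irradiated wild-type mice than in their sham groups. These bounds set the mean of the bright group against the lowest signal that was well above background, or the probe's own where that was higher, on each sham array. The list overlaps in kind with the rule for the 10 genes and was chosen with earlier results known, so it is not independent evidence.

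The genes outside the 10 whose levels followed each of the 10 most closely were found by Pearson's r over all 16 arrays. The search covered 15507 genes well above background on each array, with the 10 themselves left out. The arrays form an irradiated and a sham set and share slides, so r is a description of likeness here. Ephx1 was most like Mgmt, which removes alkyl groups from guanine (r = 0.985), and then Trp53inp1 (0.977). Dcxr, Cox6b2 and Epha2 were each most like Cdkn1a, the cyclin-dependent kinase inhibitor p21, with r of 0.966, 0.932 and 0.868. Rps27l was most like Aen, an apoptosis-enhancing nuclease (0.943), and Avil most like Mgmt (0.900). Phlda3 followed Ly6a (0.927) and Alox5 (0.890), a leukotriene-forming lipoxygenase. The genes with small differences had other neighbours. Ak1 followed the mitochondrial enzyme genes Idh2 (0.879) and Acad8 (0.876), Abhd4 followed Nfe2l2 (0.919), which codes for the transcription factor NRF2, and Ei24 followed Tnnc1 (0.839).

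Genotype was tested because the genes were chosen by their link to p53 or their irradiation response, not by genotype. After irradiation, 0 of the 10 genes were called between knockout and wild-type mice, against 1.18% of all genes, and in sham mice 0 of the 10 were called, against 0.0516% of all genes. In no gene did the knockout and wild-type values separate completely, whereas they did for 8.73% of all genes after irradiation and 4.82% in sham mice. At an unadjusted p under 0.05, 1 of the 10 passed after irradiation, against 16.6% of all genes, and 0 in sham mice, against 7.69% of all genes. In neither case was the share of the 10 above that of all genes. The gene was Epha2, which averaged -2.46 ± 0.37 in irradiated knockout mice and -3.11 ± 0.19 in irradiated wild-type mice (SD, n = 4 each). Its difference was 0.65 (SE 0.21, 1.57-fold, limma unadjusted p = 0.00679, adjusted p = 0.125), with an interval at 95% of 0.21 to 1.09. Over the alternatives tried its limma adjusted p ran between 0.00546, under normexp background correction, and 0.308. Under normexp 3378 genes were called in this contrast, 83.5% of them higher in knockout mice, against 205 genes called in the report's model. In sham mice Epha2 averaged -3.62 ± 0.25 in knockout and -4.0 ± 0.36 in wild-type mice, a difference of 0.39 (SE 0.21, adjusted p = 0.698). Since the knockout arrays shared a slide, genotype and slide cannot be told apart in this difference.

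For the other 9 genes the difference between knockout and wild-type mice ran between -0.26 for Avil and 0.26 for Dcxr after irradiation, and between -0.29 for Avil and 0.19 for Dcxr in sham mice. The intervals at 95% show what sizes the arrays leave possible. Rps27l was the most tightly bounded, at -0.26 to 0.16 after irradiation and -0.19 to 0.23 in sham mice. Avil was the least, at -0.93 to 0.41 after irradiation and -0.96 to 0.37 in sham mice. Rps27l and Ei24 lie on chromosome 9, as Neil1 does, and their genotype differences after irradiation were -0.05 (SE 0.10) and -0.07 (SE 0.11).

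The interaction asks whether the difference after irradiation itself differed between knockout and wild-type mice. None of the 10 genes was called, nor was any gene on the array (0.00% of 17436 in limma, with 222 genes at an unadjusted p under 0.05), and none of the 10 reached an unadjusted p under 0.05. Epha2 had the largest interaction of the 10 at 0.26 (SE 0.29), with an interval of -0.36 to 0.88. Ephx1 had 0.04 (SE 0.18, interval -0.34 to 0.43) and Dcxr 0.08 (SE 0.28, interval -0.52 to 0.68). The intervals of Avil, -0.92 to 0.98, still leave room for a response of very different size in the genotypes. Missing the threshold does not show that the genotypes responded alike.

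**Figure D4:**
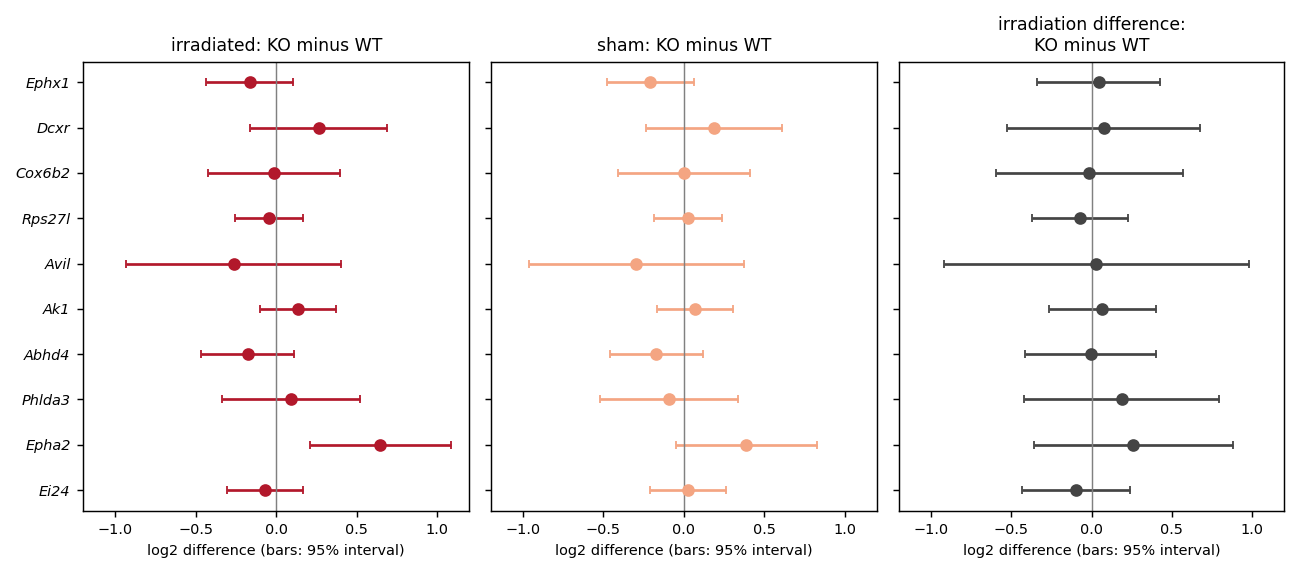
Log2 difference between Neil1 knockout and wild-type mice for each gene (x axis) after irradiation (left), in sham mice (middle), and for the difference after irradiation itself (right), with bars for the 95% interval. All intervals include 0 except that of Epha2 after irradiation, which runs from 0.21 to 1.09.

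Markers of other cells that moved with irradiation were measured beside these results. Of 9 microglial markers, P2ry12 and Ctss were called lower in the averaged contrast, and the summed linear signal of the 9 was 35.1 to 41.9 times the 75th percentile in irradiated knockout mice, against 42.6 to 52.8 in sham knockout mice. In irradiated wild-type mice it was 38.6 to 49.9, against 48.8 to 60.2 in sham wild-type mice. Of 8 markers of oligodendrocyte precursors, Gpr17 and Neu4 were called lower, where 0.304% of all genes were called in either direction. Neu4 differed by -0.60 with its brighter probe and by -0.20 with its other probe. The sums of the 8 markers were 24.0 to 38.6 in irradiated knockout mice, against 25.3 to 42.6 in sham knockout mice. In wild-type mice they were 20.9 to 37.7 after irradiation, against 29.1 to 44.3 after sham. The summed choroid plexus signal overlapped between all groups. It was 19.2 to 26.5 in irradiated and 17.9 to 23.4 in sham knockout mice. In wild-type mice it was 18.0 to 26.2 after irradiation and 18.8 to 25.9 after sham. Of the 10 choroid plexus markers, 8 had a mean difference above 0 in each genotype, with a median of 0.46 in knockout and 0.16 in wild-type mice. In the averaged contrast 5 of 5 ependyma markers were above 0 (median 0.32). For meninges 0 of 6 were (median -0.20), and for striatum 0 of 7 (median -0.13). Among 6 tested markers of red cells and platelets, Gp9 was called lower, while 4 of the 6 had a mean difference above 0 and the median was 0.37. Among 7 tested markers of lymphocytes and neutrophils, Il7r and Cd79b were called lower, while 4 of the 7 were above 0 and the median was 0.10. No marker of cortical neurons, astrocytes, oligodendrocytes, endothelial cells, pericytes and smooth muscle, choroid plexus, ependyma, meninges or striatum was called in the averaged contrast. The 8 oligodendrocyte markers had a median difference of 0.21 in knockout mice and -0.20 in wild-type mice, with 0 called in either or in the interaction. The summed striatal signal ran between 17.0 and 132 over all arrays and overlapped between all groups. The part of these cell types in the levels of the 10 genes was not tested.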

How the data were processed

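Cerebral cortex RNA of 16 mice was measured on 1-colour Agilent arrays, 1 array per mouse, so replicates are separate animals. Per the file headers, the authors extracted the spot intensity with Agilent Feature Extraction 12.0.3.1, background-subtracted and detrended within each array and not scaled between arrays. Flags in the same deposited files mark spots that are dim, saturated or outliers. A further deposited table holds 1 score per probe and array, made by the authors in a way the labels do not state. Its values were treated as z-scores of the log signal, since each column had SD 1 and a correlation of at least 0.9996 with its array, and was used only as an alternative, rescaled to log2.

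Processed signals were put on the log2 scale and the 75th percentile of each array was subtracted. Control spots were left out, outlier spots were set missing and spots of a probe were averaged. A probe was kept if well above background on at least 4 of 16 arrays, and a gene needed values on at least 12. Of 56605 probes, 35886 carried a RefSeq accession and 32994 were named through RefSeq (GRCm38.p6). The array design names an older mouse assembly, so no gene coordinates other than those of promoter windows are given. The brightest kept probe stood for a gene. The 17436 genes were fitted with limma 3.58.1 in R 4.3.3, with statmod 1.5.0, as 1 mean per group, and p-values were adjusted by Benjamini-Hochberg over all genes of a contrast. The code was tested on simulated data. The number of arrays limits the precision.

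The named genes were Neil1, the 10 genes with every probe, and the 2 genes outside the 10 that were most like each of them. Up to 4 genes per list with the smallest p of the averaged irradiation contrast were named too. So was the closest paralogue of each of the 10. Not every gene that this rule names is reported here. Rpl39l and Gtse1 were named after their values were seen. The 10 genes and all lists were chosen with earlier results of these data known. Alternatives were normexp background correction, quantile normalization, other probe filters, the mean of probes, a replicate block, other variance models, the deposited table, and leaving out arrays. Normexp was planned on the mean spot signal and run on the median spot signal. A slide block could not be fitted, because each slide held 1 genotype.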

Additional observations from a re-analysis of the deposited data

Results flagged for a closer look

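In the other probe of Rps27l, replicate 4 of the irradiated knockout mice stood at 1.35, above the other 3 mice of its group, which lay between 1.18 and 1.19. In the other probe of Ei24, replicate 1 of the sham knockout mice stood at -0.0918, above the other 3, which lay between -0.60 and -0.59. Each was flagged because its gap to the nearest mouse took up nearly the whole range of its group, past Dixon's critical ratio at 95% for 4 samples. Over 52 sets of a probe and a group, chance flags about 1 in 20, and 2 were found.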

How the results depend on the processing

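Of 770 values of the irradiation differences of the 10 genes under the alternatives, 767 moved by less than the spread between mice, 0 changed sign, and the other 3 were those of Avil under normexp, 1.01 in knockout mice, 1.04 in wild-type mice and 1.02 in the average. Of 770 genotype and interaction values, 769 stayed on their side of the threshold, and Epha2 after irradiation under normexp (0.66, adjusted p = 0.00546) passed it. The cause was not tested. Counts of called genes in the irradiation contrasts were 9 to 16 in wild-type mice (13 in the report's model) and 36 to 55 in the average (53). In knockout mice 21 genes were called, 6 with only the groups of the contrast fitted, 7 without the 2 dimmest arrays (an alternative chosen after seeing the data, which leaves 2 irradiated knockout mice) and 11 to 22 with 1 mouse left out, with 11, 13 and 13 without sham knockout replicates 2, 3 and 4. Genotype in sham mice gave 9, 2 with only the groups of the contrast, and 5 to 14 with 1 mouse left out, with 14 without sham knockout replicate 2 and 5 without replicate 3. Genotype after irradiation gave 205, 3378 under normexp, 96 under quantile normalization, 1798 with no filter on dim probes, 494 with the mean of all probes, 77 from the deposited table, 18 with only the groups of the contrast, 4 without the 2 dimmest arrays, and 17 to 470 with 1 mouse left out. Without irradiated knockout replicates 1 to 4 in turn it gave 110, 32, 37 and 30, and without irradiated wild-type replicates 1 to 4 in turn 470, 31, 17 and 63. The share of those calls that were higher in knockout mice was 69.8%, and 83.5% under normexp, 46.9% under quantile normalization and 51.9% in the deposited table. For irradiation the share higher was 61.9% in knockout mice and 54.7% in the average, against 90.0% and 82.5% under normexp, 66.7% and 67.6% under quantile normalization, and 80.0% and 69.4% in the deposited table. In wild-type mice it was 84.6%, and 100% under normexp and in the deposited table. In sham mice 22.2% of the genotype calls were higher in knockout mice, against 45.5% under normexp and 33.3% under quantile normalization. The interaction gave 0 calls in limma under every alternative that was run, with 222 genes at an unadjusted p under 0.05.

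Replicate numbers follow the columns of the slides. Same-numbered mice correlated between -0.60 and 0.52 in their deviations from the group means and 5 of 16 arrays correlated best with their own number, so the numbers were not taken as pairs. With the replicate number as a block, 13 genes were called for irradiation in knockout mice in place of 21. The slide as a block was not run, since each slide holds 1 genotype. Dim probes such as those of Avil and Epha2 lie nearest to the background and limit what their values can show.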
